A study of Mus musculus with 3 samples.

Results

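Retnla, Chil3, Ear2, Ear6, Ccl24, the receptor genes Il4ra and Il13ra1, and the cytokine genes Il4 and Il13 make up the set of type 2 genes described here. They are 9 of the 31053 mouse genes counted, and they were taken by symbol from the gene list that all 3 libraries share. Every member had at least 1 UMI (unique molecular identifier, which counts captured RNA molecules and not their PCR copies) in the kept cells of every library. The data answer which cells of a skin graft carried each gene, whether few or many cells held its RNA, and how its level differed between cultures with and without a vitamin D compound.

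The study implanted human split-thickness skin under the skin of C57BL6/J mice and took the grafts out after 14 days. Grafts of 5 mice were digested with collagenase IV and sequenced as 1 library (hSTSG), and only mouse genes were counted. The species of each cell was not tested. The other libraries are bone marrow cells of C57/BL6 mice grown with GM-CSF for 7 days, left untreated (Co-Mac) or given 1,25-dihydroxycholecalciferol (VD3) at 1 µM for 24 hours (VD-Mac). Each condition has 1 library made with 10x 3' v3 chemistry. The age of the mice is not given, and no map from cells to mice was available. Therefore no value could be checked in a replicate and no test was made.

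Type 2 immunity is the branch of the immune response that meets parasitic worms and allergens and takes part in the repair of wounds. Basophils, mast cells, helper T cells and innate lymphoid cells release IL-4 and IL-13, and both cytokines signal through receptors that share the IL-4 receptor alpha chain and activate the transcription factor STAT6. In mouse macrophages this switches on a set of genes that includes Retnla, Chil3 and Ccl24.

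The kept cells numbered 7257 in Co-Mac, 8825 in VD-Mac and 2144 in the graft. Their gene UMIs came to 132574308, 116461484 and 22646544, with medians of 15804, 12089 and 6637.5 per cell. Levels are in CPM, the UMIs of a gene for every 1000000 gene UMIs summed over a set of cells. All intervals are exact 95% intervals, Poisson for levels, Clopper-Pearson for shares of cells and conditional binomial for ratios, and they cover counting error only. Of the kept barcodes, 15 occurred in both cultures, 3 in Co-Mac and the graft, and 6 in VD-Mac and the graft.

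Graft cells fell into 13 clusters that were named by marker genes, and the members were left out of the genes that shaped the clusters. The clusters that matter most below are cluster 1 (monocyte-like, 374 cells), clusters 2 and 3 (macrophage-like, 340 and 274 cells), cluster 9 (eosinophil-like, 32 cells) and cluster 12 (basophil-like, 14 cells). Names with the ending "like" rest on markers alone, and some rest on mixed evidence. Cluster 1 carried all 8 monocyte markers at a summed 2414 CPM, Plac8 the most abundant at 1080 CPM, but also macrophage markers at 8368 CPM and erythroid markers at 5349 CPM, of which Hbb-bs gave 3109 CPM. Cluster 9 had a median of 636 UMIs per cell and carried 4 of 6 eosinophil markers at 1539 CPM, Ccr3 the most abundant, while Prg3 and Epx had 0 UMIs.

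RNA of the ligands lay in very few cells of the graft. Il4, the cytokine that drives type 2 helper T cells and antibody class switching, stood at 72.4 CPM in the graft (68.9 to 76.0, 1639 UMIs). Only 42 of the 2144 cells (1.96%, 1.42 to 2.64%) held an Il4 UMI, 3 cells held 50% of its UMIs, and 7 cells held 90%. Il13, which acts on epithelium, fibroblasts and macrophages, stood at 24.2 CPM (22.3 to 26.4, 549 UMIs) in 28 cells (1.31%, 0.870 to 1.88%), and again 3 cells held 50% of its UMIs. Both ligand genes were thus concentrated in a handful of cells.

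Most UMIs of both genes lay in basophil-like cells. Cluster 12 made up 14 of 2144 cells and held 1580 Il4 UMIs (96.4%) and 503 Il13 UMIs (91.6%). Il4 was found in 11 of its cells (78.6%) at 18139 CPM (17256 to 19056), with 0 to 491 UMIs per cell and a median of 42.5. Il13 was found in all 14 at 5775 CPM (5281 to 6302), with 1 to 183 UMIs per cell and a median of 7. The 11 cells with Il4 also carried Il13. After every cell was thinned to 2000 UMIs, 10 of 13 cells held Il4, 12 held Il13 and 9 held both. In fibroblast-like cells, which should lack both genes, 1 of 146 cells held Il4 (0.685%) and 2 held Il13 (1.37%), at a median of 25010.5 UMIs per cell against 4588.5 in cluster 12.

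Within the basophil-like cells the 2 cytokine genes were again uneven. The highest cell had 7569 UMIs in all, of which 491 were Il4 (6.49%) and 183 were Il13. Without the UMIs of each gene in its 5 highest cells, the cluster stood at 2847 CPM for Il4 and 735 CPM for Il13. The total still counts all cells of the cluster, so the remaining cells stand above these levels. Wherever the highest cells of a gene are left out below, the total likewise counts all cells. The name of the cluster rests on all 6 basophil markers, at a summed 7703 CPM with Mcpt8 the most abundant at 6199 CPM. Of 6 mast cell markers Cpa3 alone was found, at 91.8 CPM, and Kit, Mcpt4, Tpsb2, Cma1 and Mrgprb1 had 0 UMIs. None of 6 eosinophil markers and 1 of 7 T cell markers (Trac, 23.0 CPM) were found. Of 10 macrophage markers 8 were found, at a summed 2067 CPM, with Apoe at 873 CPM, and the source of these UMIs was not tested. Of 6 markers of type 2 innate lymphoid cells 3 were found, with Areg at 4110 CPM, and Gata3, Il17rb and Klrg1 had 0 UMIs. Of 8 neutrophil markers 6 were found, at a summed 9276 CPM, of which Hdc gave 9219 CPM.

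A smaller source of both ligands lay among T cell-like cells. Cluster 4, with 179 cells, held 32 Il4 UMIs in 5 cells (26.3 CPM) and 40 Il13 UMIs in 8 cells (32.9 CPM), and the other T cell-like cluster, with 124 cells, held 0 of both. A cell with 19942 UMIs carried 15 Il4 and 4 Il13 UMIs together with 40 UMIs of Gata3, the transcription factor of type 2 lymphocytes, 24 of Cd3g and 19 of Cd4. Of the Il13 cells of cluster 4, 4 also held Il5, with 5, 5, 1 and 22 UMIs. Il5, Cd3g and Cd4 in these cells were looked up after the Il4 and Il13 values were seen. Cluster 4 carried 7 of 7 T cell markers at 2668 CPM, with Trbc2 at 720 CPM, 6 of 6 innate lymphoid markers at 1838 CPM, with Rora at 743 CPM, and 6 of 6 NK cell markers at 1712 CPM, with Gzma at 1559 CPM.

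Outside cluster 12, most cells with either cytokine gene held a lone UMI. Of 31 such cells with Il4 this was so for 27, and of 14 with Il13 for 8. The eosinophil-like cells had 3 Il4 UMIs in 2 cells. Leaving out the 10 highest cells took the graft from 72.4 to 2.30 CPM for Il4 and from 24.2 to 1.94 CPM for Il13. When every cell weighed the same, the levels were 118 and 45.7 CPM. The other ligand genes on the pathway list were counted too: Il33 had 1261 UMIs in the graft, Tslp 78 and Il5 43, in 5 cells, while Il9 and Il25 had 0.

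**Figure D1:**
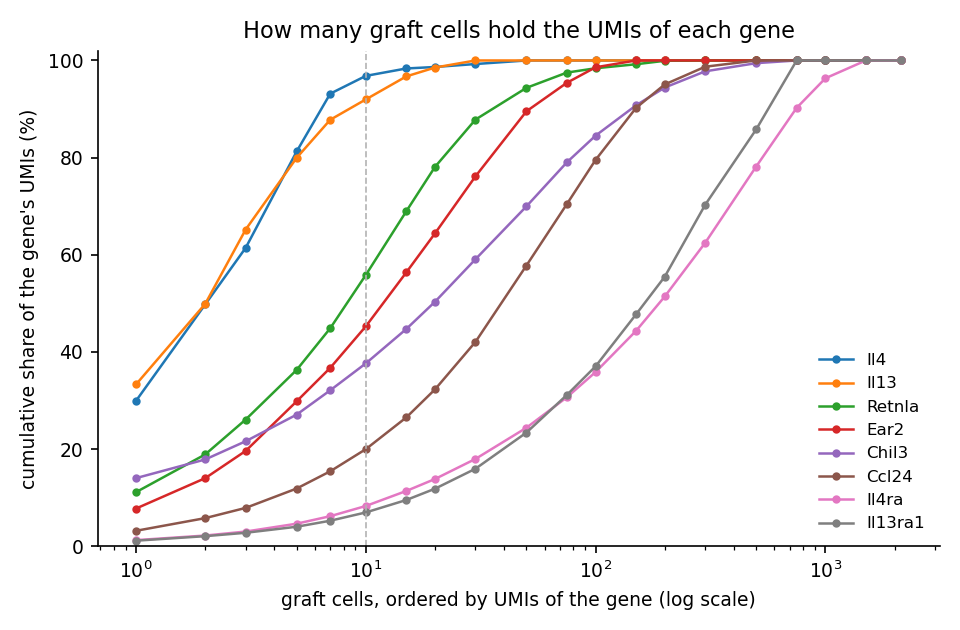
Cumulative share (%) of a gene's UMIs in the graft, against the number of cells ordered from the most UMIs of that gene (log scale), with 1 line per gene and a dashed line at 10 cells. Il4 and Il13 reach 96.8 and 92.0% at 10 cells, Retnla 55.9%, Ear2 45.3%, Chil3 37.7%, Ccl24 20.0%, Il4ra 8.31% and Il13ra1 6.98%; Ear6, with 5 UMIs, is not drawn.

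The receptors had the opposite spread. Il4ra, the chain shared by both receptor types, was found in 1152 graft cells (53.7%, 51.6 to 55.9%) at 183 CPM (177 to 189), and its 10 highest cells held 8.31% of its UMIs. Il13ra1, which joins it to form the receptor that binds both cytokines, was found in 683 cells (31.9%, 29.9 to 33.9%) at 57.0 CPM (53.9 to 60.2), with 6.98% of its UMIs in 10 cells. It took 189 cells to hold 50% of the Il4ra UMIs and 165 cells for Il13ra1. Thinned to 2000 UMIs, the shares were 27.2% and 10.5%. T cell-like cells, which should lack Il13ra1, held it in 6 of 303 cells (1.98%) at a median of 5552 UMIs per cell. For Il4ra no class of graft cells serves as such a control, since most immune and stromal cells use it.

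The 2 receptor genes peaked in different cells. Il4ra was highest in macrophage-like cluster 3 at 371 CPM (352 to 391), where 201 of 274 cells carried it (73.4%, or 43.1% thinned). T cell-like clusters 4 and 6 followed at 278 (249 to 309) and 267 CPM (231 to 308), with intervals that overlap, then mature DC-like cluster 7 at 211 CPM, cluster 1 at 177 CPM, the fibroblast-like cells at 140 CPM and cluster 2 at 104 CPM. The endothelial-like cells stood at 88.5 CPM, the neutrophil-like clusters 0 and 8 at 86.4 and 45.5 CPM, and the B or plasma cell-like cluster 10 at 64.6 CPM. With coarser clusters (resolution 0.3 in place of 0.5) the highest level was 447 CPM in a cluster of 121 cells that took in 44.2% of cluster 3.

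Il13ra1 was highest in the neutrophil-like cluster 0 at 167 CPM (144 to 192), where 142 of 474 cells carried it (30.0%, 24.0% thinned). The fibroblast-like cells came next at 103 CPM, with a UMI in 118 of 146 cells. Clusters 2, 1 and 8 stood at 62.1, 48.5 and 48.3 CPM, and macrophage-like cluster 3, the highest for Il4ra, at 27.1 CPM. T cell-like clusters 4 and 6 stood at 4.93 and 1.39 CPM. The basophil-like cells, which held most of the ligand RNA, had 1 Il4ra UMI (11.5 CPM) and 0 Il13ra1 UMIs. The eosinophil-like cells had 0 Il4ra UMIs, which allows up to 153 CPM at their depth. Il13ra2, the gene of the decoy receptor for IL-13, had 224 UMIs in the graft and 0 in both cultures.

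**Figure D2:**
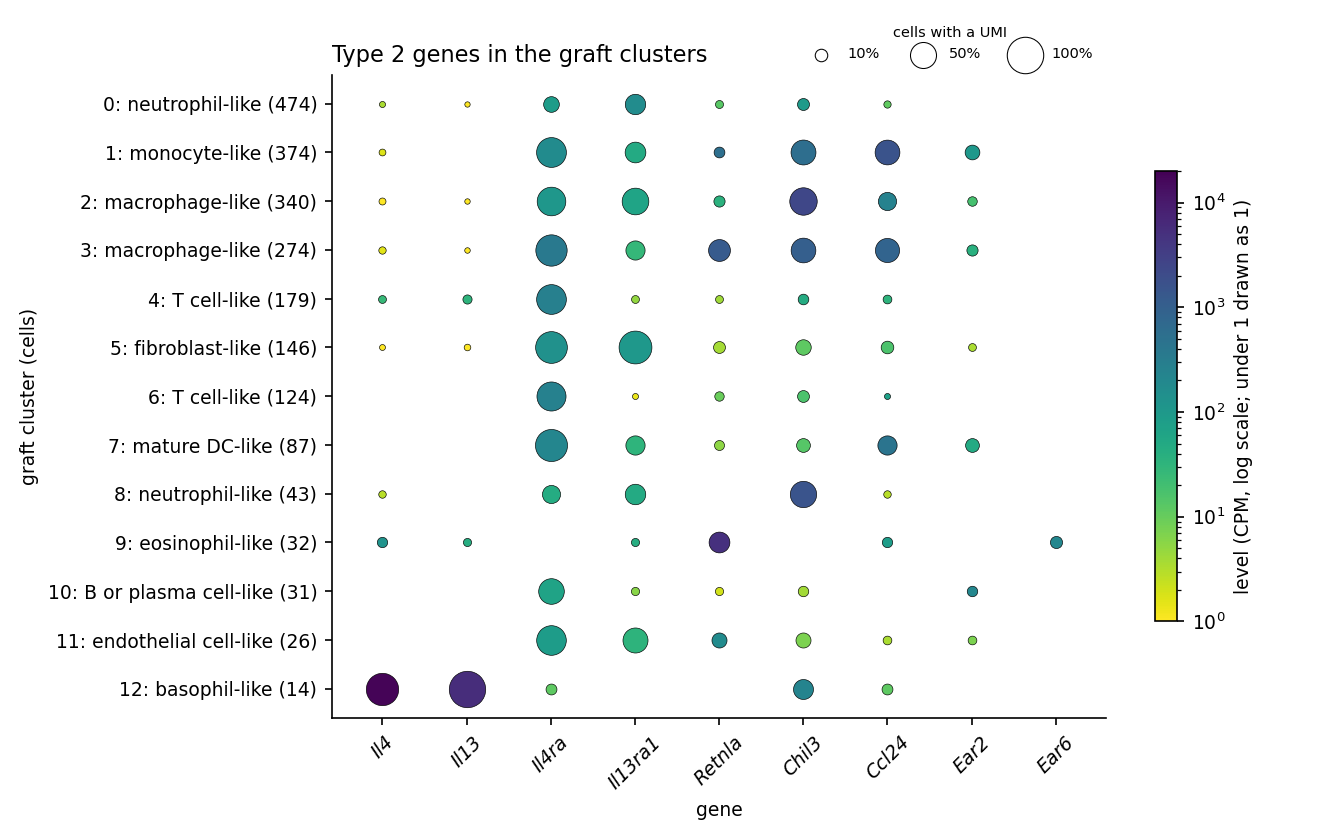
Level of each member (colour, CPM on a log scale) and share of cells with a UMI (circle area) in the 13 graft clusters, with cell numbers in brackets. Il4 and Il13 stand out in the 14 basophil-like cells, Il4ra is spread over nearly all clusters, and Retnla, Chil3 and Ccl24 differ in which of clusters 1, 2, 3 and 9 they are highest.

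Retnla (resistin-like alpha, a secreted protein of alternatively activated macrophages) was held by a minority of the macrophage-like cells. It stood at 314 CPM in the graft (306 to 321, 7100 UMIs) in 205 cells (9.56%, 8.35 to 10.9%, or 4.72% thinned). Of its UMIs, 9 cells held 50% and 35 cells held 90%. Among carriers, 96 had a lone UMI and 60 had 10 or more. T cell-like cells held it in 11 of 303 cells (3.63%) at 6.21 CPM. Retnla was thus neither a feature of a few cells like Il4 nor of most macrophages like Il4ra.

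Cluster 3 held 65.2% of the Retnla UMIs, 4632 in all, at 1207 CPM (1172 to 1242). In it 95 of 274 cells carried the gene (34.7%, 29.0 to 40.6%, or 24.0% thinned), and 47 of them had 10 or more UMIs. The leading genes of this cluster were Cd163, Cbr2, Ccl8, Lyve1, Ccl12, Npl, Fcna, Fcgrt, Folr2 and Stab1, several of which are known from tissue-resident macrophages, and they are listed because of the Retnla values of the cluster, after these were seen. All 10 macrophage markers were found there, at 19992 CPM with Apoe at 7677 CPM. Cluster 1 held 1990 UMIs in 26 of 374 cells (6.95%), and 5 cells held 83.6% of that. Without the Retnla UMIs of those 5 cells its level was 90.9 CPM in place of 555 CPM. On the same measure, without its 5 highest cells, cluster 3 was at 608 CPM. Cluster 2, the other macrophage-like cluster, stood at 35.8 CPM, with 159 of its 208 UMIs in 1 cell.

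The highest level of Retnla in any cluster was in the eosinophil-like cells, from few molecules. Cluster 9 had 121 UMIs in 10 of 32 cells (31.3%) at 5032 CPM (4176 to 6013). Without the Retnla UMIs of its 5 highest cells it stood at 707 CPM. No cell of this cluster reached 2000 UMIs, so it has no thinned share. Beside its eosinophil markers the cluster held 8 of 10 macrophage markers at a summed 1331 CPM, with Adgre1 at 541 CPM and 0 UMIs of Mertk and Fcgr1, and their part in its Retnla was not tested. Its leading genes were Prg2 (665 CPM), Ccr3 (749 CPM), 9830107B12Rik, Rnf144b, Dach1, Jade1, Serpinb2 (5531 CPM), Cyp4f18, Gfod1 and Gcnt1. With coarser clusters the highest level was elsewhere, in 121 cells at 1677 CPM. The endothelial-like cells stood at 175 CPM with 98 of 101 UMIs in 1 cell, and the basophil-like cells and cluster 8 had 0 Retnla UMIs.

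A few single cells gave much of their RNA to this gene. The highest cell, in cluster 3, had 792 Retnla UMIs of 8256 (9.59%). Of the 10 highest cells, 6 lay in cluster 3 and 4 in cluster 1, and these 10 held 55.9% of the UMIs. Without them the graft level was 138 CPM. Weighing every cell the same gave 464 CPM. Retnla was higher in the 365 cells with 5 to under 10% mitochondrial UMIs (494 CPM, median 7949 UMIs) than in the 1779 cells under 5% (276 CPM, median 6267), and the part of RNA quality in its level was not tested.

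Retnla-rich cells of cluster 3 differed from their neighbours in other genes. The 47 cells with 10 or more Retnla UMIs and the 179 with 0 had nearly the same depth (medians of 12009 and 12205 UMIs). Cd209d stood at 772 against 14.1 CPM, Cd209a at 360 against 6.41 CPM and Cd209e at 214 against 1.71 CPM, all lectin genes of the DC-SIGN family. They were found in 16, 13 and 12 of the 47 cells, so most Retnla-rich cells had no UMI of each. Lyve1, a hyaluronan receptor gene, stood at 356 against 73.1 CPM, Lpl (lipoprotein lipase) at 217 against 15.0 CPM, and Rnase2a at 132 against 1.71 CPM. Gfra2 was at 78.4 against 5.98 CPM. The lectin gene Mgl2 was at 335 against 117 CPM, and Fcrls went the other way at 117 against 234 CPM. These genes were chosen after their values were seen, and no test was made.

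In cluster 1 the 8 Retnla-rich cells stood apart from 348 cells without the gene in partly different genes. Lpl was again higher, at 1040 against 9.75 CPM, and Fcrls was higher too, at 547 against 11.6 CPM. Gfra2 was at 61.6 against 5.49 CPM and Rnase2a at 146 against 0 CPM, both higher as in cluster 3. Cd209a had 3 UMIs (23.1 CPM) against 364 (111 CPM), and Mgl2 was lower too, at 308 against 406 CPM. By share of cells both were higher: Cd209a was found in 2 of 8 against 28 of 348 cells, and Mgl2 in 7 against 142. Clec4b1 stood at 231 against 12.2 CPM and Ear2 at 955 against 61.9 CPM. These genes too were picked after their values were seen, and the part of depth was not tested. Thus Lpl, Gfra2 and Rnase2a were higher with Retnla in both clusters, while Fcrls differed in direction between them. For Cd209a and Mgl2 the level differed in direction between the clusters, and the share of cells did not.

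Chil3 (Ym1, a chitinase-like secreted protein) was found in more graft cells than the other targets among the members. In the graft it stood at 937 CPM (925 to 950, 21230 UMIs) in 617 cells (28.8%, 26.9 to 30.7%, or 19.6% thinned). T cell-like cells held it in 23 of 303 cells (7.59%) at 36.2 CPM. Its UMIs were split between a few very high cells and many moderate ones: 20 cells held 50% of them, 142 cells held 90%, and 218 cells had 10 or more. The highest cell alone had 2981 Chil3 UMIs of 65441, which is 14.0% of the graft total. Without the 10 highest cells the level was 584 CPM.

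Macrophage-like cluster 2 was highest, at 2473 CPM with 67.8% of the Chil3 UMIs in 190 of 340 cells (55.9%, 39.3% thinned). Its leading genes were Mmp12, Gpnmb, Spp1, Rnf128, Atp6v0d2, Itgax, Mfge8, F7, Lyz2 and Cd36, and it carried 10 of 10 macrophage markers at 12053 CPM with Apoe at 4992 CPM. The neutrophil-like cluster 8 came next at 1547 CPM in 22 of 43 cells, then macrophage-like cluster 3 at 1035 CPM in 123 of 274 cells and cluster 1 at 576 CPM in 171 of 374 cells. Chil3 and Retnla thus differed in their main macrophage-like cluster. The larger neutrophil-like cluster 0 stood at 92.5 CPM, and the eosinophil-like cells had 0 Chil3 UMIs. Basophil-like cells stood at 230 CPM, with 17 of 20 UMIs in 1 cell.

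Chil3-rich cells of neutrophil-like cluster 8 held more Camp and Ltf, which are granule genes. The 17 cells with 10 or more Chil3 UMIs (median 9456 UMIs in all) held Camp at 16072 CPM and Ltf at 14162 CPM, against 144 and 197 CPM in the 21 cells with 0 (median 5868). Both genes are on the list of neutrophil precursor markers, of which 4 of 8 were found in cluster 8, Ngp the most abundant at 23709 CPM, while Elane, Mpo, Prtn3 and Ctsg had 0 UMIs. In cluster 2, the 101 Chil3-rich cells held Saa3 at 1760 against 171 CPM in 150 cells without it, and Wfdc21 at 493 against 63.1 CPM. Saa3, Camp and Ltf were chosen after their values were seen.

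Among the other genes of these families, Retnlg stood out in the graft, with 8687 UMIs (384 CPM), against 10 UMIs in Co-Mac and 65 in VD-Mac. Retn had 45 graft UMIs, Chil1 688, Chil4 42, Chil5 5 and Chit1 1. Chil6 had UMIs in the cultures alone, 1 and 2, and Retnlb and Chia1 had 0 in every library. Chil3 and Chil4 are near-identical neighbours: 17.1% of the 50-base windows in the last 500 bases of Chil3 also occur in other genes, mostly Chil4, so reads from there cannot be assigned to either.

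The Ear genes code for eosinophil-associated ribonucleases, which macrophages and dendritic cells also make. Ear2 stood at 34.6 CPM in the graft (32.2 to 37.1, 784 UMIs) in 111 cells (5.18%, 4.28 to 6.20%, or 2.39% thinned), 12 of which held 50% of its UMIs. Monocyte-like cluster 1 held 45.7% of them at 99.9 CPM in 55 of 374 cells (6.05% of thinned cells). Mature DC-like cluster 7 stood at 48.4 CPM and macrophage-like clusters 3 and 2 at 36.7 and 18.9 CPM. A few cells carried these levels: without the 5 highest cells of each, cluster 1 was at 59.4 CPM, cluster 7 at 7.31, cluster 3 at 11.98 and cluster 2 at 3.44 CPM, which turns the order of clusters 7 and 3. T cell-like cells had 0 UMIs, which allows up to 1.91 CPM, and neutrophil-like cells also had 0. Without the 10 highest cells the graft level was 18.9 CPM, and with equal weight for every cell it was 22.0 CPM.

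The highest cluster level of Ear2 came from 2 cells. The B or plasma cell-like cluster 10, with 31 cells, stood at 206 CPM because 2 cells held its 105 UMIs, 61 and 44. Both cells carried Cd209a (67 and 8 UMIs) and Mgl2 (129 and 34), 1 Igkc UMI each and 0 of Jchain. By contrast, the leading genes of cluster 10 were Igkc (54821 CPM), Ighm, Jchain, Mzb1, Iglc2, Iglc1, Iglv1, Pou2af1, Ly6d and Hist1h2ap. With coarser clusters Ear2 was highest in 376 cells at 99.1 CPM, and with 30 principal components in 325 cells at 108 CPM.

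Ear6 was at the limit of detection in all libraries, with 33, 39 and 5 UMIs in Co-Mac, VD-Mac and the graft. All 5 graft UMIs lay in 3 eosinophil-like cells (208 CPM, 67.5 to 485), and the cell with 3 of them held 56 Retnla UMIs. The eosinophil-like cells had 0 Ear2 UMIs, which allows up to 153 CPM at their depth. Ear1 had 37, 4 and 0 UMIs, and Ear10 and Ear14 had 0 throughout. Of the 50-base windows in the last 500 bases of Ear2, 38.1% also occur in other genes, most often Ear1, against 2.00% for Ear6. Reads from shared windows cannot be assigned to 1 gene, which limits any count of this family.

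Ear2 and Retnla met in some of the same cells. Of 60 cells with 10 or more Retnla UMIs and 25 with 10 or more Ear2 UMIs, 6 were in both groups. The 34 cells with any of both genes held 4051 of the 7100 Retnla UMIs, 1802 of them in 12 cells of cluster 1 and 2139 in 15 cells of cluster 3. At equal depth, 4 of 11 Retnla carriers of cluster 1 held Ear2 (36.4%) against 5.06% of the other cells, and in cluster 3 it was 6 of 59 (10.2%) against 1.60%. The 13 Ear2-rich cells of cluster 1 (median 16036 UMIs) held Retnla at 5560 CPM against 66.5 CPM in the 319 cells without Ear2 (median 8341). Only 6 of the 13 held any Retnla, and 3 of them held 510, 373 and 255 of the 1253 Retnla UMIs. They also held Mgl2 at 1313 against 271 CPM, Cd209a at 626 against 53.8 CPM, Fcrls at 302 against 10.3 CPM and Clec4b1 at 182 against 5.66 CPM. Cd209a was picked after its values were seen, and the part of depth was not tested.

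Ccl24 (eotaxin-2, a chemokine that draws eosinophils) was held by many monocyte-like and macrophage-like cells. It stood at 484 CPM in the graft (475 to 494, 10969 UMIs) in 427 cells (19.9%, 18.2 to 21.7%, or 14.3% thinned). The highest cell held 3.20% of its UMIs, 40 cells held 50% and 149 cells held 90%, the most even spread of the secreted targets. T cell-like cells held it in 8 of 303 cells (2.64%) at 47.6 CPM, with 51 of 92 UMIs in 1 cell. Without the 10 highest cells the graft stood at 387 CPM.

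Cluster 1 was highest for Ccl24, at 1582 CPM (1541 to 1624) with 51.7% of its UMIs in 169 of 374 cells (45.2%, 37.5% thinned). Its other leading genes were Hbb-bs, Spint1, Ms4a4c, H2-Aa, H2-Ab1, H2-Eb1, Depdc7, H2-DMb1 and Gpr141. Cluster 3 stood at 840 CPM (29.4% of the UMIs, 117 cells), cluster 7 at 439 CPM with 231 of 481 UMIs in 1 cell, and cluster 2 at 244 CPM in 80 of 340 cells. The order of clusters 1, 3 and 2 for Ccl24 was thus the reverse of their order for Chil3. Of the 10 highest Ccl24 cells, 7 lay in cluster 1.

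Cells rich in Ccl24 held more Mmp13 in clusters 1 and 3, and more Ccl8 in cluster 1. In cluster 1, 94 cells with 10 or more UMIs (median 8441.5 UMIs in all) held Mmp13, a collagenase gene, at 1765 CPM against 160 CPM in 205 cells without Ccl24 (median 10084). Ccl8 stood at 2337 against 253 CPM, Pdcd1lg2 at 424 against 52.2 CPM and Cdh1 (E-cadherin) at 293 against 38.5 CPM. In cluster 3, 47 Ccl24-rich cells held Mmp13 at 3313 against 125 CPM and Chil3 at 3056 against 640 CPM in 157 cells without it. Mmp13 was found in 25.5% of the Ccl24-rich cells of cluster 1 and 44.7% of those of cluster 3, so most of them had no UMI of it. Mmp13, Ccl8 and Pdcd1lg2 were chosen after their values were seen.

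At equal depth the members did not share cells in the same way in every cluster. In cluster 3, Ccl24 was found in 42.4% of Retnla carriers and 24.1% of the other cells, in 38.8% of Chil3 carriers and 24.6% of the others, and in 37.7% of Il4ra carriers and 21.4% of the others. Chil3 was found there in 30.5% of Retnla carriers and 26.2% of the others. In cluster 1, Ccl24 was found in 36.4% of the 11 Retnla carriers and 37.5% of the other cells, in 25.2% of Chil3 carriers and 42.9% of the others, and in 44.0% of Il4ra carriers and 34.2% of the others. Chil3 was found there in 0 of 11 Retnla carriers against 31.8% of the others. Carriers of Chil3 thus held Ccl24 at a lower share than the other cells in cluster 1 and at a higher share in cluster 3. These pairs were selected after the values were seen.

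Across the clusters of all libraries together, each target had its own nearest genes. The measure is Pearson's correlation of log2(CPM + 5) over 36 clusters with at least 20 cells, from the graft and from both cultures, so that the points share libraries and differ in depth. Retnla was most like Itga9 (0.904), Msx3 (0.874), Ednrb (0.863), Etv1 (0.859) and Reps2 (0.845). For Chil3 the nearest genes were Clec5a (0.875), Wfdc21 (0.850), Aoah (0.830), Lyz2 (0.820) and Gpr84 (0.815), of which Clec5a and Lyz2 are known from myeloid cells. Ear2 was nearest to Fcrls (0.782), Mgl2 (0.779), Uck2 (0.715), Lrrc59 (0.711) and Clec4b1 (0.709). The genes nearest to Ear6 were Aox2 (0.952), Cyp21a1 (0.952), E230014E18Rik (0.949), Oit3 (0.907) and Aspa (0.880), in a pattern that rests on few UMIs. Genes near to Ccl24 were Arhgef10l (0.897), Sdc4 (0.877), Wwc1 (0.867) and Ppp2ca (0.863). These orders depend on pooling graft and cultures. Over the 12 graft clusters or the 24 culture clusters alone, the 5 nearest genes of Retnla and of Ccl24 include none of those named here, and of the others Mgl2 (Ear2, graft, 0.941), E230014E18Rik (Ear6, graft, 0.996), Fcrls (Ear2, cultures, 0.845) and Wfdc21 (Chil3, cultures, 0.935) recur.

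The cultures held few UMIs of Retnla, Ccl24, Il4 and Il13. Retnla stood at 0.701 CPM in Co-Mac and 0.0429 CPM in VD-Mac, Ccl24 at 0.867 and 1.65 CPM, Il4 at 0.0981 and 0.223 CPM, and Il13 at 0.00754 and 0.0601 CPM. Chil3, by contrast, was abundant in both cultures, at 909 CPM (904 to 914) in Co-Mac and 860 CPM (854 to 865) in VD-Mac. Graft and cultures were prepared apart and differ in tissue, time and cell make-up, so their levels are given side by side and not compared.

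With VD3, Ear2 fell and no other member passed the call. A gene was called at 2-fold or more between the summed cultures with at least 10 CPM in the higher one. Ear2 stood at 56.3 CPM in Co-Mac (55.0 to 57.6, 7466 UMIs) and 5.76 CPM in VD-Mac (5.33 to 6.21, 671 UMIs), a 9.77-fold fall (log2 ratio −3.29, −3.41 to −3.17). By size it was the 18th lowest ratio of 7732 genes that reached 10 CPM. Of the 9 members 4 reached 10 CPM, and 1 was called, lower in VD-Mac. Among all 7732 genes, 525 were called (6.79%), 358 of them lower (4.63%) and 167 higher (2.16%). After 1 CPM was added to every level, the log2 ratios had a median of −0.28 over the 4 members and −0.10 over all genes.

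The fall in Ear2 showed in the number of cells and in the amount per cell. A UMI was found in 1596 Co-Mac cells (22.0%) and 390 VD-Mac cells (4.42%), or in 6.71 and 0.938% of cells thinned to 2000 UMIs. Cells with 10 or more Ear2 UMIs numbered 219 in Co-Mac and 2 in VD-Mac, and the highest cell had 44 against 12. Mature DC-like cells, with little Ear2, held it in 0.344 and 0.330% of thinned cells, at median depths of 14394 and 13620 UMIs. In a sum over a library, fewer cells of a type and less RNA per cell cannot be told apart, and the levels within cell classes are therefore given next.

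Ear2 was lower in VD-Mac in each of the larger cell classes that held it. Macrophage-like cells (clusters 5 and 6 together, 1319 and 1453 cells) stood at 75.1 and 9.39 CPM (log2 ratio −3.00, −3.19 to −2.82), with a UMI in 12.2 and 2.07% of thinned cells. Cycling cells that matched no named type (clusters 4 and 7, 1615 and 1026 cells) stood at 94.4 and 13.04 CPM (−2.86, −3.02 to −2.70). They are joined because both scored highest on the cycling list (2.02 and 2.12) and next on the neutrophil precursor list (1.00 and 1.17), but their other genes differ: the monocyte markers Ccr2 and Ly6c2 were among the 10 leading genes of cluster 4 and not of cluster 7. Ly6c2 was looked up after its values were seen. In neutrophil-like cells (929 and 1117) the level was 27.5 against 2.41 CPM (−3.51, −4.55 to −2.63), and in mature DC-like cells (2621 and 3333) it was 1.58 against 0.826 CPM (−0.94, −1.54 to −0.35). Apart from the neutrophil-like one, the clusters joined in these classes are almost all of 1 culture each. Cluster 6 had 1318 Co-Mac and 11 VD-Mac cells and cluster 5 had 1 and 1442, so a cluster and its library cannot be told apart.

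Cell make-up and depth also differed between the cultures. Cycling cluster 4 held 64.7% of the Co-Mac Ear2 UMIs. Cycling cells of clusters 4 and 7 made up 22.3% of Co-Mac and 11.6% of VD-Mac, and macrophage-like cells 18.2 and 16.5%. These shares leave out the unnamed cluster 3, whose best-scoring list was also cycling (0.585) and which held 552 Co-Mac and 1460 VD-Mac cells. All 5 cycling markers were found in each culture, at a summed 494 CPM in Co-Mac, with Top2a at 142 CPM, and 401 CPM in VD-Mac, with Birc5 at 114 CPM. All 8 monocyte markers were found in both cultures, at a summed 747 CPM in Co-Mac, with Ccr2 at 318 CPM, and 274 CPM in VD-Mac, with Ifitm6 at 84.7 CPM. The 10 macrophage markers stood at 967 and 1176 CPM, with C1qb the most abundant in both. With equal class weights in both cultures, the log2 ratio of Ear2 was −2.87. Among cells under 5% mitochondrial UMIs it was −5.06, from 77.8 CPM in Co-Mac (median 10889 UMIs) and 2.33 CPM in VD-Mac (median 3229), and the part of depth in that ratio was not tested.

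Chil3 hardly differed between the libraries, while its ratio differed between cell classes. Its log2 ratio was −0.08 (−0.09 to −0.07). It turned to 0.02 when centred on the median of all genes and to 0.29 with equal class weights, and it was −0.74 with equal cluster weights, so its direction depends on how cells are weighed. In macrophage-like cells it stood at 282 CPM in Co-Mac and 1037 CPM in VD-Mac, 3.67-fold higher (log2 ratio 1.88, 1.84 to 1.91), with a UMI in 20.9 and 42.6% of thinned cells. In neutrophil-like cells it was lower in VD-Mac, at 6986 against 4940 CPM (−0.50, −0.52 to −0.48), with a UMI in 71.6 and 55.1% of thinned cells. Cycling cells stood at 1487 and 1692 CPM (0.19, 0.17 to 0.20) and mature DC-like cells at 13.2 and 12.3 CPM (−0.09, −0.26 to 0.08). Within single clusters the few cells of the other culture did not follow the class ratios. The 11 VD-Mac cells of macrophage-like cluster 6 stood at 49.7 CPM against 283 CPM in its Co-Mac cells. In cycling cluster 4 the 28 VD-Mac cells stood at 3453 CPM against 1367 CPM in Co-Mac, and in cycling cluster 7 the 32 Co-Mac cells at 12098 CPM against 1659 CPM in VD-Mac. Chil3 in the macrophage-like and cycling classes was thus compared mostly between clusters.

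The cells that held Chil3 also differed between the cultures. Cycling cluster 4 held 57.7% of the Co-Mac Chil3 UMIs, the neutrophil-like cluster 27.9% and macrophage-like cluster 6 the smaller part, 7.34%. In VD-Mac cycling cluster 7 held 42.0%, macrophage-like cluster 5 held 29.7% and the neutrophil-like cluster 22.5%. Chil3 was found in 46.7% of Co-Mac cells and 36.6% of VD-Mac cells, or 26.1 and 23.9% when thinned. Its relative Chil1 stood at 1.98 CPM in Co-Mac and 9.46 CPM in VD-Mac, under the 10 CPM the call asks for.

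Between the whole libraries the receptor genes differed by less than the 2-fold of the call. Il4ra stood at 67.2 CPM in Co-Mac and 85.2 CPM in VD-Mac (log2 ratio 0.34, 0.30 to 0.38), and its ratio lay between 0.12 and 0.30 in the cycling, macrophage-like, neutrophil-like and mature DC-like cells. Il13ra1 stood at 22.2 and 15.8 CPM (−0.50, −0.58 to −0.41), with ratios from −0.76 to −0.35 in the same classes. Both genes were thus on the same side of 0 in these 4 classes as in the whole libraries. Other classes varied more. In the unnamed clusters 3, 9 and 11 together (622 and 1654 cells) Il4ra stood at 23.5 and 40.3 CPM (0.77, 0.35 to 1.22) and Il13ra1 at 9.17 and 9.12 CPM, with a ratio near 0. In cDC1-like cells (80 and 153) Il4ra stood at 33.1 and 69.6 CPM (1.07, 0.54 to 1.63), past 2-fold, and in B or plasma cell-like cells it had 12 and 4 UMIs (−1.57, −3.66 to 0.15). Il13ra1 in cDC1-like cells had 18 and 16 UMIs (−0.99, −2.06 to 0.07). A UMI of Il4ra was found in 58.8 and 53.7% of cells (12.9 and 15.2% thinned) and of Il13ra1 in 29.2 and 17.1% (3.98 and 3.11% thinned).

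Members under 10 CPM had ratios from few molecules. Retnla had 93 UMIs in 28 Co-Mac cells and 5 UMIs in 3 VD-Mac cells (log2 ratio −4.03, −5.69 to −2.76). Of those 93, 81.7% lay in macrophage-like cluster 6 and 25 in 1 cell. Retnla was found in 1.52% of the Co-Mac macrophage-like cells. Fibroblast markers stood at a summed 2.96 CPM in Co-Mac, with Col1a2 at 0.928 CPM, and 0.172 CPM in VD-Mac, with Col1a1 at 0.155 CPM. Their part in the Retnla ratio was not tested. The Retnla ratio was −2.48 with the same weights for each cluster and −2.18 after thinning. Ccl24 had 115 and 192 UMIs (0.93, 0.59 to 1.27), of which the cycling cells held 36 and 86. Ear6 stood at 0.249 and 0.335 CPM (0.43, −0.28 to 1.14), which was no detectable difference at this depth. Its ratio was 2.14 with the same weights for each cluster, 1.51 under 5% mitochondrial UMIs and −0.59 after thinning, so it has no firm direction.

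The ligand genes were in basophil-like cells in the cultures as well. Of 13 Il4 UMIs in Co-Mac and 26 in VD-Mac, 12 and 24 lay in the basophil-like cluster of 27 and 36 cells, 92.3% in both cultures. Its Il4 level was 22.7 and 58.4 CPM (log2 ratio 1.36, 0.30 to 2.49). Il13 had 1 UMI in Co-Mac and 7 in VD-Mac, all of them in that cluster. The cluster was 0.372 and 0.408% of the cells, with a median of 14490 and 7588.5 UMIs. Over the whole libraries all 6 basophil markers were found, at a summed 62.2 and 54.2 CPM with Prss34 the most abundant. In the cluster, over both cultures together, Prss34 stood at 6389 CPM. Eosinophil markers also scored high in this cluster, with a mean log2 ratio of 4.05 against 7.83 for the basophil list. Over the whole libraries all 6 were found in both cultures, at a summed 37.8 and 33.0 CPM with Prg2 the most abundant. These sums take in cells outside the cluster, and the part of eosinophil markers in the Il4 of the cluster was not tested. Basophil-like cells thus held nearly all Il4 RNA in the graft and in both cultures.

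**Figure D3:**
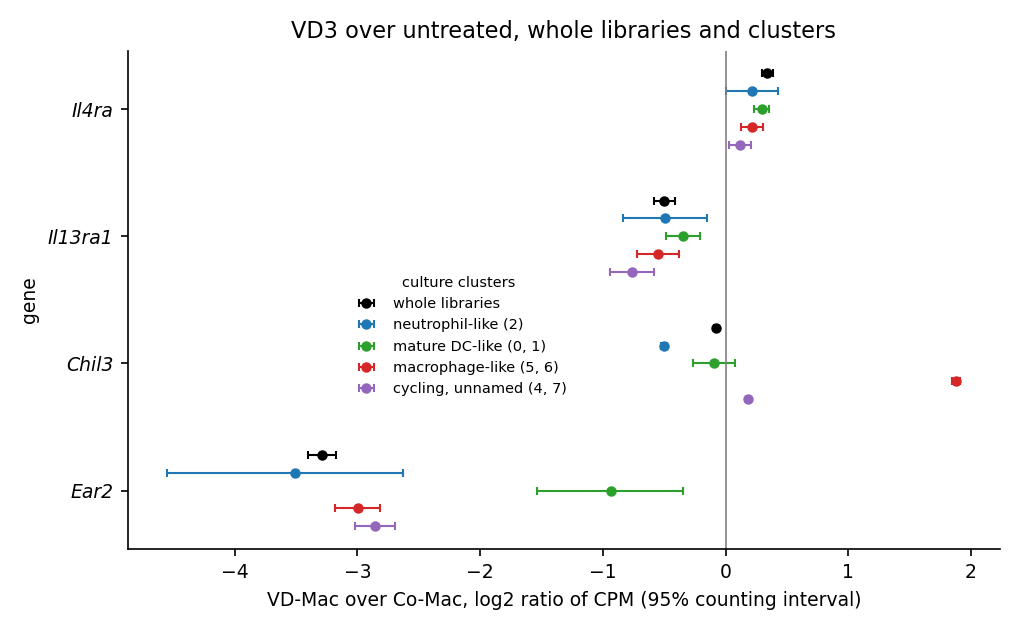
Log2 ratio of CPM, VD-Mac over Co-Mac, for the 4 members with at least 10 CPM in the higher culture, in whole libraries (black) and in 4 classes of culture clusters (colours), with bars for the 95% counting interval. Ear2 lies between −3.51 and −2.86 in all but the mature DC-like cells, and Chil3 is at 1.88 in macrophage-like and −0.50 in neutrophil-like cells around −0.08 for whole libraries.

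Other genes of the pathway were lower with VD3 mainly among the targets. The list of ligands, receptors, signalling genes, transcription factors, targets and gene families held 79 genes, of which 41 reached 10 CPM; 13 were called lower and 1 higher, with a median log2 ratio of −0.45 against −0.10 for all genes. Of all genes 4.63% were called lower and 2.16% higher. None of 7 ligands reached 10 CPM. Of 5 receptors 0 were called (median −0.39), and of 10 signalling genes 0 (median 0.22), with Stat6 at 46.8 and 55.6 CPM. Of 9 transcription factors 1 was called, Klf4, which fell from 62.4 to 23.2 CPM (−1.43). Of 16 targets 11 fell and 1 rose (median −1.45). The monocyte markers (747 and 274 CPM) were also lower in VD-Mac, and their part in these counts was not tested.

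The targets that fell include markers of alternatively activated macrophages. Mgl2, a galactose-type lectin gene, fell from 492 to 35.0 CPM (log2 ratio −3.81), Mrc1, the mannose receptor gene, from 62.7 to 14.1 CPM (−2.16) and Cdh1 from 50.5 to 2.50 CPM (−4.34). Fn1 (fibronectin) fell from 388 to 41.1 CPM (−3.24), the scavenger receptor genes Cd36 from 182 to 61.4 CPM (−1.56) and Msr1 from 111 to 45.9 CPM (−1.27), and the chemokine gene Ccl17 from 3078 to 1358 CPM (−1.18). The target that rose was Tgm2 (transglutaminase 2), from 11.7 to 41.1 CPM (1.81), which is named because it was alone in its direction, after its value was seen. Ear2, on the list through its family, thus lay with Mgl2 and Fn1 in the size of its fall.

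The genes lie on several chromosomes, and some are neighbours. In the GRCm38 annotation Il4 (ENSMUSG00000000869) spans chr11:53602982-53618669 and Il13 (ENSMUSG00000020383) chr11:53631324-53634702, with 12.7 kb between them. Retnla (ENSMUSG00000061100) lies at chr16:48842551-48844461, 28.2 kb from Retnlg. Chil3 (ENSMUSG00000040809) lies at chr3:106147554-106167564, 33.9 kb from Chil4. Ear2 (ENSMUSG00000072596) starts at 44102654 and Ear6 (ENSMUSG00000062148) at 51853699 on chromosome 14, Il4ra (ENSMUSG00000030748) is on chromosome 7, Ccl24 (ENSMUSG00000004814) on chromosome 5 and Il13ra1 (ENSMUSG00000017057) on chromosome X. The labels name the mm9 build for the counts, so these positions are those of the gene identifiers and not of the alignment.

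Promoter sequences are shown for the members in which the motif of STAT6, the factor under both receptors, was found. RefSeq promoters (250 bases before to 50 after the start, build GRCm38.p6) were available for 8 of the 9 members, all but Ccl24. The motif searched was TTC, then 4 bases of any kind, then GAA, which reads the same on both strands. It was present in the promoters of 2 members, Retnla and Il4 (1 of its 2 promoters), in 6.95% of 32851 promoters of the same length, and in at least 1 promoter of 8.01% of 27025 genes. A repeat of nuclear receptor sites with a gap of 3 bases (DR3), searched on both strands, was present in 0 members and in 0.0396% of promoters. A match is a description of letters and not a binding site. Each window below has 50 bases 5′ to 3′ on the strand of the gene, with the motif in capitals, from chr16:48842444-48842493 (plus strand, motif 145 bases before the start) and chr11:53618803-53618852 (minus strand, 167 bases before the start).
Retnla: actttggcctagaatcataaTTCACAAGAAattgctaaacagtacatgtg
Il4: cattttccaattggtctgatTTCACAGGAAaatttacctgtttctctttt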

How the data were processed

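The authors deposited raw counts, the UMIs of every mouse gene in every barcode from Cell Ranger with no normalization; the submitters' processing notes also name Seurat 3.1.1 and the build mm9. Barcodes with at least 300 genes, under 100000 gene UMIs and under 10% mitochondrial UMIs were kept, which left out 609 of 7866 (Co-Mac), 969 of 9794 (VD-Mac) and 500 of 2644 (hSTSG). Counts were scaled to 10000 UMIs per cell and log-transformed. The graft was clustered alone and the cultures together without integration, from 2000 variable genes without member and pathway genes, 15 principal components, 15 neighbours and Louvain clustering of a shared-neighbour graph at resolution 0.5. Clusters took the name of the marker list with the highest mean log2 ratio, with 5 CPM added. At least 3 markers had to be found, and the score had to be at least 0.5. A lead under 0.3 over the next list left a cluster unnamed only where a leading gene was on that next list. A shallow cluster with no leading gene on its best list was also left unnamed. Some lists were treated apart from this rule. The erythroid and cycling lists gave no names: graft cluster 1 scored 2.58 on the erythroid and 1.32 on the monocyte list. Culture clusters that scored highest on the cycling list were left unnamed. Macrophage-like culture cluster 6 scored 0.688 against 0.391 for the fibroblast list, a lead just under 0.3. It kept its name because none of its leading genes is on the fibroblast list. These thresholds were settled after the clusters were seen.

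Levels were summed over cells. With 1 library per condition, counting intervals stand in place of tests. Cells were thinned to 2000 UMIs for shares at equal depth, which left out 472, 1149 and 301 shallower cells. Scrublet's own threshold called 1, 0 and 8 cells and so gave no usable call in the cultures; leaving out the highest scores at the expected rate (457, 691 and 45 cells) was tried as an alternative.

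The members and lists were chosen with earlier results of these data known. The text names all members and every listed gene of the resistin and chitinase-like families. Ear genes were taken by symbol, Ear followed by a number, so any family gene under another symbol is not counted with them. The text names pathway genes called and at 50 CPM or more in the higher culture (up to 12 by size of the ratio). It names the 5 genes most correlated with each of Retnla, Chil3, Ear2, Ear6 and Ccl24. It also names the 10 leading genes (at least 50 CPM and in 25% of cells) of the cluster where each of these is highest and the most abundant gene of each marker list. A gene that the rule takes is not reported here. Genes outside this rule are marked as chosen after their values were seen, except the other ligand genes, Il13ra2, Gata3 and Stat6, which are given for their roles, and markers of the fixed lists that had 0 UMIs in a cluster, all of them also after their values were seen. The gene identifiers were matched to an annotation of GRCm38, which holds 99.6% of the 31053, 98.5% of those with the same symbol. Alternatives covered the cell filter, doublets, depth, scaling, cell weights, the highest cells and the clustering.

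The call rule and the ratio intervals were checked on simulated counts. The other steps were not checked in this way. Python 3.11.15 was used with scanpy 1.11.5, igraph 0.11.9, numpy 2.4.6, scipy 1.17.1, pandas 2.3.3, scikit-learn 1.9.0 and matplotlib 3.10.9.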

Additional observations from a re-analysis of the deposited data

Results flagged for a closer look

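Chil3 went in opposite directions between the cultures in different cell classes, and the difference between classes was not tested. Its log2 ratio, VD-Mac over Co-Mac, was 1.88 in macrophage-like cells and 0.19 in cycling cells without a named type, but −0.50 in neutrophil-like cells. The macrophage-like and cycling ratios set clusters of mostly 1 culture against each other. The ratio of 5.10 in B or plasma cell-like cells came from 1 UMI in 44 cells against 34 UMIs in 53 cells. The ratio of −2.10 in basophil-like cells came from 33 UMIs against 6.

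Graft barcodes left out for 10% or more mitochondrial UMIs, 192 that passed the other filters, held Retnla at 587 CPM (535 to 642, 472 UMIs in 21 barcodes) and Il4ra at 231 CPM (199 to 267). Both stood above the kept cells, which were at 314 and 183 CPM. Some other members were lower in the same barcodes, Chil3 at 136 against 937 CPM, Ccl24 at 147 against 484 CPM and Il13ra1 at 29.8 against 57.0 CPM, and Il4 and Il13 had 0 UMIs. Ear2 stood at 38.6 CPM (26.2 to 54.7) against 34.6 CPM. These differences too were not tested.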

How the results depend on the processing

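A turn to the opposite call was looked for only in members called in the main setting, which was Ear2 alone, and did not occur. The log2 ratios of Chil3 (−0.74 to 0.29) and Ear6 (−0.59 to 2.14) changed sign between alternatives. Ear2 was called lower in VD-Mac in all 10 alternatives of the call, and its log2 ratio ran from −5.06 to −2.87. Of 95 ratios 70 stayed within their counting interval, as did 24 of 54 graft levels and 20 of 35 shares held by the 10 highest cells; 32 of 36 highest clusters and 7 of 10 counts of called genes were kept. The values that moved follow; leaving out high cells lowers a graft level by construction, and a looser or stricter limit of the call raises or lowers its count. For the others the cause was not tested. Alternatives with equal class weights, without culture clusters 3 and 11, and without graft cluster 9 were chosen after seeing the data. No paired analysis was possible because each condition has 1 library and cells are not matched between libraries.

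Genes called numbered 1449 at 1.5-fold, 181 at 3-fold and 215 at 50 CPM, in place of 525.

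Log2 ratios that moved, VD-Mac over Co-Mac, were as follows. With the same weights for each cluster (clusters with at least 20 cells in both cultures) Retnla was −2.48, Chil3 −0.74, Ear6 2.14 and Il4ra 0.30. After thinning Retnla was −2.18, Ear6 −0.59, Il4ra 0.23 and Il13ra1 −0.39. Centred on the median gene, Chil3 was 0.0180, Il4ra 0.44 and Il13ra1 −0.40. Under 5% mitochondrial UMIs Chil3 was −0.0571, Ear2 −5.06, Ear6 1.51 and Il4ra 0.25. With no cell filter Chil3 was −0.0572. As a mean over cells Chil3 was −0.13, Il4ra 0.20 and Il13ra1 −0.62. With the same class weights Chil3 was 0.29, Ear2 −2.87 and Il4ra 0.25. Without the 10 highest cells Chil3 was −0.0676, Ear2 −3.41 and Ccl24 1.33.

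Graft levels that moved (CPM) were, under 5% mitochondrial UMIs, Retnla 276, Chil3 1023, Il4ra 175, Il13ra1 61.0, Ccl24 522, Il4 87.3 and Il13 27.8. With no filter Chil3 was 872, Ccl24 453 and Il4 67.1, and without the highest Scrublet scores Chil3 was 957. Without the 10 highest cells Retnla was 138, Chil3 584, Ear2 18.9, Ear6 0, Il4ra 168, Il13ra1 53.0, Ccl24 387, Il4 2.30 and Il13 1.94. As a mean over cells Retnla was 464, Chil3 882, Ear2 22.0, Ear6 2.33, Il4ra 172, Il13ra1 73.1, Ccl24 651, Il4 118 and Il13 45.7. Without graft cluster 9 Ear6 was 0.

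Shares of graft UMIs in the 10 highest cells (%) moved, under 5% mitochondrial UMIs, to 71.8 for Retnla, 41.8 for Chil3, 53.2 for Ear2, 10.1 for Il4ra, 22.5 for Ccl24 and 94.4 for Il13, and with no filter to 52.3 for Retnla. After thinning they were 59.3 for Retnla, 28.1 for Chil3, 40 for Ear2, 6.39 for Il4ra, 11.3 for Il13ra1, 20.9 for Ccl24, 97.8 for Il4 and 94.8 for Il13.

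The share of a gene's highest graft cluster that stayed in its highest cluster was, at resolution 0.3, 0% for Retnla, 0% for Ear2 and 44.2% for Il4ra, and with 30 principal components 3.23% for Ear2. Depth limits Ear6 and, in the cultures, Retnla, Ccl24, Il4 and Il13, all under 10 CPM.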
